A study of Mus musculus with 12 samples.

Results

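The genes described here are 9 genes of retinal dopamine signalling and of the melatonin rhythm, and they were read in mouse retina after autoimmune optic neuritis with and without needling. They are Th, Ddc, Slc18a2 and Slc6a3 (synthesis, packing and reuptake of dopamine), Drd1, Drd2 and Drd4 (dopamine receptors), Adcy1 (an adenylyl cyclase) and Aanat (an enzyme of melatonin synthesis). The members were found as the rows of the count and FPKM tables whose Ensembl identifier carries 1 of these 9 symbols in the GENCODE vM21 annotation, and each of the 9 symbols gave 1 row among 54532 gene identifiers. All 9 are protein-coding genes. On GRCm38 the dopamine supply genes lie at chr7:142892752-142931128 (Th, minus strand), chr11:11814101-11898144 (Ddc, minus), chr19:59260896-59296012 (Slc18a2, plus) and chr13:73536747-73578672 (Slc6a3, plus). The receptors lie at chr13:54051183-54055705 (Drd1, minus), chr9:49340627-49408177 (Drd2, plus) and chr7:141292006-141296464 (Drd4, plus), Adcy1 at chr11:7063489-7178506 (plus) and Aanat at chr11:116586432-116597680 (plus). All retinas came from female C57BL/6 wild type mice at an age of 13 weeks, with 3 libraries in each of 4 groups. SHAM mice were the control group, whose procedure is not described. MOG mice had been immunized with the MOG35-55 peptide in complete Freund's adjuvant with mycobacterium, and had been given pertussis toxin. This immunization induces experimental autoimmune encephalomyelitis (EAE) with optic neuritis. Whether SHAM mice received the adjuvant or the toxin is not stated. GB20 and GV16 mice had been immunized in the same way and were needled repeatedly, under anesthesia, at the acupoint GB20 or at the control acupoint GV16. It is not stated whether the un-needled groups received the anesthetic, whether a library pools several mice, or at which time of day and under which lighting retinas were taken. The methods describe biological replicates and repeat rounds of the experiment, but no label ties a library to a round. The p-values below measure the spread between these libraries, and light phase cannot be read from the labels.

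Dopamine is made in the retina by a sparse class of amacrine cells in the inner nuclear layer. Th (tyrosine hydroxylase) makes L-DOPA, which is the rate-limiting step, and Ddc (aromatic amino acid decarboxylase) turns it into dopamine. Slc18a2, the vesicular monoamine transporter, loads dopamine into vesicles, and Slc6a3, the dopamine transporter, takes it back up. Dopamine release is driven by light and adapts the retina to daytime vision. Drd1 raises cyclic AMP in neurons of the inner and outer retina, Drd2 is the autoreceptor of the dopaminergic cells, and Drd4 lowers cyclic AMP in photoreceptors. Adcy1, which calcium and calmodulin stimulate, makes cyclic AMP in photoreceptors. Melatonin stands for night in the same circuit, and Aanat makes its precursor from serotonin. The transcripts of Drd4, Adcy1 and Aanat are known to be higher at night in rodent retina, and C57BL/6 mice carry a defective Aanat and make little melatonin. These genes were therefore read beside the core clock genes, as genes that may move with light phase and with the clock alike.

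The promoters of the members were read first, because 2 short motifs link genes of this kind to the clock and to cyclic AMP. The E-box (CACGTG) is bound by the clock proteins CLOCK and BMAL1 and by other factors, and the cyclic AMP response element or CRE (TGACGTCA) is bound by CREB. Both motifs are palindromes, so both strands were covered. Each window held 300 bases of the GRCm38.p6 RefSeq sequence, from 250 bases before to 50 bases after the annotated start. Of the 9 members 8 had a promoter window. Adcy1 held an E-box 169 bases before its start. One of the windows of the clock gene Per1 held an E-box 166 bases before the start, and the other, at chr11:69099902-69100201, held neither motif. Of other clock genes described below, Ciart held 3 E-boxes, the first 116 bases before its start, and Dbp held none. Th held a CRE 45 bases before its start, and Slc18a2 held one 4 bases before. The 4 windows are printed in lower case with the motif in capitals, 5′ to 3′ on the strand of the gene. They lie at chr11:7063183-7063482 on the plus strand (Adcy1), chr11:69098699-69098998 on the plus strand (Per1), chr7:142899946-142900245 on the minus strand (Th) and chr19:59260628-59260927 on the plus strand (Slc18a2).
Adcy1: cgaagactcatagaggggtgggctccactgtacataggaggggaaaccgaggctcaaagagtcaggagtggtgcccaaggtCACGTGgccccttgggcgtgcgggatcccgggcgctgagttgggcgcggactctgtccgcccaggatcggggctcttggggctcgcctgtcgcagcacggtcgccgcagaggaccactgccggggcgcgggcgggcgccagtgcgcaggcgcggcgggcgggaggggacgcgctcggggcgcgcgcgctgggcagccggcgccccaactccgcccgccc
Per1: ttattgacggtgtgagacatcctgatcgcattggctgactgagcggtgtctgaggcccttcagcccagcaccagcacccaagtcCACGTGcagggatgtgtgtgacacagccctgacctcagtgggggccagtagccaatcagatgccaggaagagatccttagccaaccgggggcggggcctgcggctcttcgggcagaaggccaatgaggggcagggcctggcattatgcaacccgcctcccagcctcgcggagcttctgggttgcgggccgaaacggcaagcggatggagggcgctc
Th: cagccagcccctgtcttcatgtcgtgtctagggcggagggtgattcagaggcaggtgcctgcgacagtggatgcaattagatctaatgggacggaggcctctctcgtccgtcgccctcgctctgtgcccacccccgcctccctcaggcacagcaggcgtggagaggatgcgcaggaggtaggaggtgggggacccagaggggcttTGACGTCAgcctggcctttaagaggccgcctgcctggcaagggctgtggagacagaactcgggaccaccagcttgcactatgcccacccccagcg
Slc18a2: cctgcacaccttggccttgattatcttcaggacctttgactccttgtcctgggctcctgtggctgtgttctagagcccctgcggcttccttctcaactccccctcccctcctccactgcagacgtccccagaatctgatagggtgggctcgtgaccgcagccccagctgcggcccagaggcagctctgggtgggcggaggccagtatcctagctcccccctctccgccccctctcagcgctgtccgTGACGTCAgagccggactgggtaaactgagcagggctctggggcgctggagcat
Slc6a3 also held an E-box, 197 bases before its start, so each motif was found in 2 members. Neither motif was found in the windows of Ddc, Drd1, Drd2 and Drd4. Among all 32851 promoters of the same length, 7.15% held the E-box and 1.79% held the CRE. A match of letters does not show binding.

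The libraries held between 15860278 and 19194280 counts on genes. Levels between libraries are given as CPM, which are counts scaled to a common library size by TMM, and levels between genes as FPKM, which divides by gene length. Of the 9 members, 7 passed the filter on low counts that left 18299 genes for testing, and Slc6a3 and Aanat did not. A gene was a DEG (differentially expressed gene) in a comparison when its edgeR p, adjusted over all genes tested, was under 0.05. Replicate 2 of SHAM stood apart from the other libraries in how its counts depended on gene length. Values without it are given for Slc18a2, Drd2, Drd4 and Adcy1. The tissue label was checked on marker genes. The summed level of 12 photoreceptor genes lay between 52440 and 58550 CPM over the 12 libraries. Of these 12 genes only 1 was a DEG by edgeR, higher in GV16 vs. SHAM, and 0 to 4 per comparison had an unadjusted p under 0.05. The summed level of 5 bipolar cell genes lay between 1075 and 1267 CPM over the 12 libraries. That of 4 Müller cell genes was 2983 to 3223 CPM (SHAM), 2627 to 2933 (MOG), 2909 to 3080 (GB20) and 2988 to 3143 (GV16). All MOG libraries lay below all SHAM and all GV16 libraries in this sum. Of the 4 Müller cell genes 0 were DEGs in MOG vs. SHAM by edgeR, and 1 was lower in GV16 vs. SHAM. The 5 markers of dopaminergic amacrine cells (Th, Slc6a3, Slc18a2, Ddc and the transcription factor Nr4a2) were low by comparison, with a summed level of 21.1 to 25.4 CPM (SHAM), 18.4 to 19.3 (MOG), 18.9 to 22.5 (GB20) and 18.0 to 21.9 (GV16). The largest parts of this sum were Nr4a2 (mean 10.5 CPM in SHAM and 8.35 in MOG) and Slc18a2 (8.48 and 6.575). The other markers overlapped between SHAM and MOG. Their means were 3.54 and 3.32 CPM for Th, 0.0942 and 0.101 for Slc6a3 and 0.443 and 0.667 for Ddc. In bulk RNA, fewer cells of a type and less RNA per cell cannot be told apart.

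The order of the members by FPKM placed Adcy1 and Drd4 far above the dopamine supply genes Th, Ddc, Slc18a2 and Slc6a3. Adcy1 (mean 54.4 FPKM over 12 libraries, 42.1 to 63.6) and Drd4 (53.9, 47.0 to 62.4) stood at the top, and Adcy1 lay above Drd4 in 6 of 12 libraries, so their order is not resolved. Drd1 (11.5 FPKM) lay above Drd2 (10.7 FPKM) in 10 of 12 libraries. Slc18a2 (1.98 FPKM) and Th (1.32 FPKM) followed, each below the gene before it in all 12 libraries. The deposited FPKM of Slc18a2 imply a length of 3826 bases, against 5225 exonic bases in the annotation, and with the latter its mean was 1.45 FPKM and above Th in 10 of 12 libraries. Aanat (0.234 FPKM) lay above Ddc (0.151 FPKM) in 9 of 12 libraries, and Slc6a3 (0.0199 FPKM) was last, with 0 counts in 5 libraries and 14 counts in all. Drd1 varied least over the 12 libraries, with a coefficient of variation of 4.50% in CPM, followed by Drd4 with 8.70% and Drd2 with 8.84%.

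**Figure D1:**
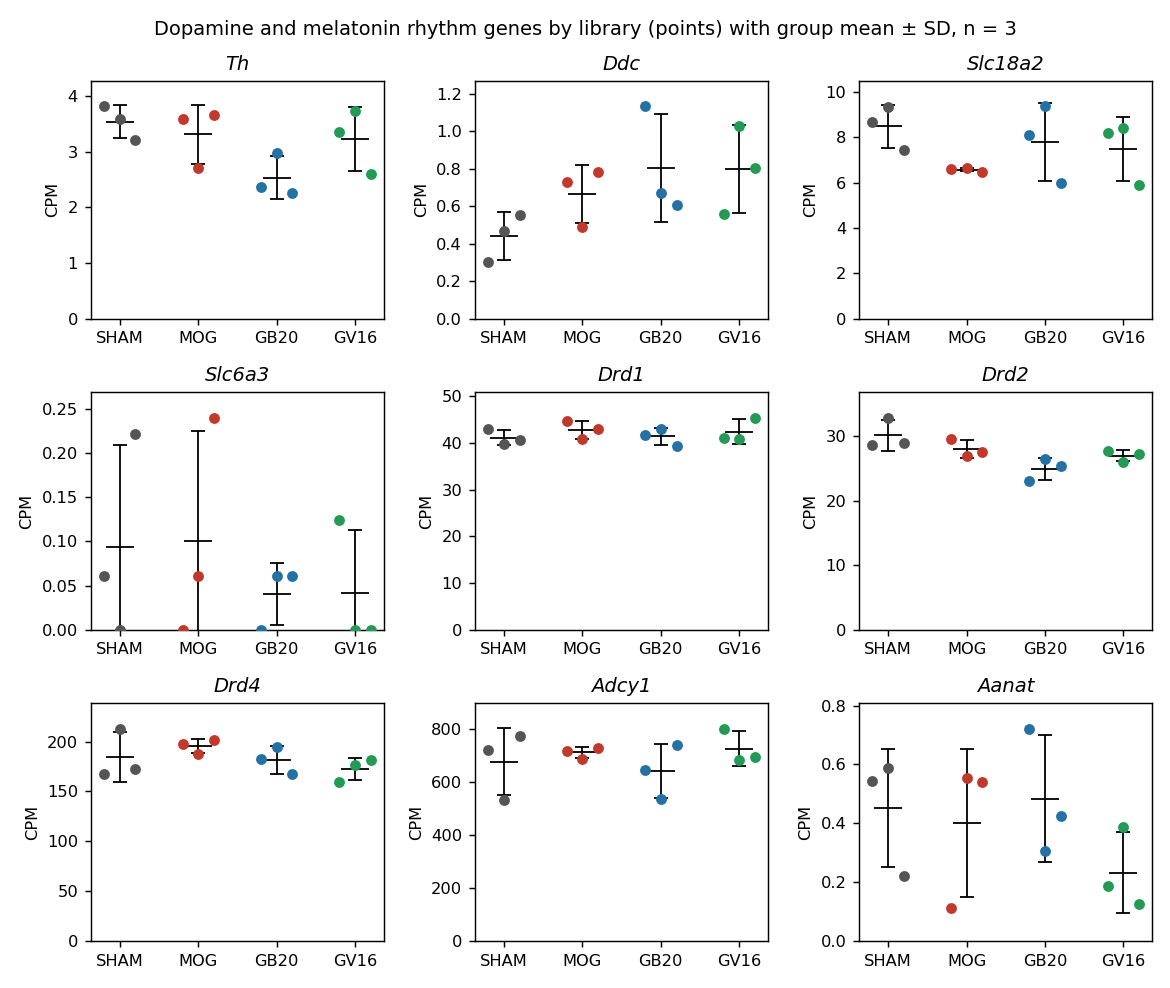
CPM on TMM library sizes (vertical axes, starting at 0) of the 9 members in SHAM, MOG, GB20 and GV16, with 1 point per library and the group mean ± SD (n = 3) in black. Drd1 lies between 39.5 and 45.5 CPM in every library, while Slc18a2 in MOG sits below all SHAM points and Slc6a3 and Aanat rest on a few counts.

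Th was the member of the synthesis step with enough counts for a firm level. Its libraries read 3.81, 3.59 and 3.22 CPM (SHAM), 3.58, 2.70 and 3.66 (MOG), 2.37, 2.98 and 2.25 (GB20) and 3.35, 3.73 and 2.60 (GV16). MOG and GV16 overlapped SHAM, and all 3 GB20 libraries lay below all 3 SHAM libraries. Group means were 3.54 ± 0.301 CPM (SHAM, SD, n = 3), 3.32 ± 0.532 (MOG), 2.53 ± 0.390 (GB20) and 3.23 ± 0.574 (GV16). The log2 fold change was -0.09 ± 0.20 (SE) in MOG vs. SHAM (edgeR quasi-likelihood test with Benjamini-Hochberg adjustment, adjusted p = 0.889), -0.39 ± 0.21 in GB20 vs. MOG (adjusted p = 0.659) and -0.04 ± 0.21 in GV16 vs. MOG (adjusted p = 0.998). The lowest p of Th, in GB20 vs. SHAM, came with a log2 fold change of -0.48 ± 0.21, and this p was under 0.05 before and not after adjustment in the edgeR fit (adjusted p = 0.484). The 95% confidence intervals over the 6 comparisons ran from -0.91 to 0.39 on the log2 scale.

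Ddc, the decarboxylase, was near the limit of detection. It had 5, 8 and 10 counts (SHAM), 13, 8 and 13 (MOG), 22, 11 and 10 (GB20) and 9, 16 and 13 (GV16), against a floor of 3 counts per library (0.155 to 0.193 CPM). In CPM all 3 GB20 libraries (0.609 to 1.13) and all 3 GV16 libraries (0.559 to 1.03) lay above SHAM (0.303 to 0.555), while MOG (0.492 to 0.781) overlapped SHAM. The log2 fold change was 0.58 ± 0.44 in MOG vs. SHAM, 0.86 ± 0.43 in GB20 vs. SHAM and 0.83 ± 0.43 in GV16 vs. SHAM (edgeR, adjusted p = 0.603, 0.571 and 0.506). Exact 2-sided permutation tests of the CPM gave p = 0.1 for both needled groups against SHAM, which is the smallest p that 3 against 3 libraries allow. The intervals of Ddc ran from -0.78 to 1.74, and Ddc was not resolved at this depth.

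Slc18a2, which fills the vesicles, had the lowest p of the members in MOG vs. SHAM. Its libraries read 8.66, 9.35 and 7.43 CPM (SHAM), 6.60, 6.64 and 6.49 (MOG), 8.09, 9.36 and 5.97 (GB20) and 8.20, 8.42 and 5.88 (GV16). All 3 MOG libraries lay below all 3 SHAM libraries, and both needled groups spanned the MOG range. The log2 fold change in MOG vs. SHAM was -0.37 ± 0.17, with an interval from -0.71 to -0.02, and its p was under 0.05 before and not after adjustment (edgeR, adjusted p = 0.348). The fold changes were 0.25 ± 0.17 in GB20 vs. MOG and 0.19 ± 0.17 in GV16 vs. MOG (adjusted p = 0.73 and 0.998), and with 1 library left out they ran from 0.10 to 0.40 and from 0.10 to 0.34. Without replicate 2 of SHAM, the highest SHAM library, the value in MOG vs. SHAM was -0.28 and its p was above 0.05 before adjustment, and with all libraries kept it lay between -0.37 and -0.24 under the other settings. Slc18a2 shares 2.12% of its exonic bases with Gm29261 on the opposite strand, and the strand setting of the counting is not given in the sources used here.

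Slc6a3, the reuptake transporter, had 1, 0 and 4 counts (SHAM), 0, 1 and 4 (MOG), 0, 1 and 1 (GB20) and 2, 0 and 0 (GV16). Most of these libraries stood at or under the floor of 3 counts, so no fold change is given and a difference was not detectable at this depth. Nr4a2, a transcription factor of dopaminergic cells, read 10.5 ± 1.28 CPM (SHAM), 8.35 ± 0.162 (MOG), 9.38 ± 0.699 (GB20) and 8.82 ± 0.803 (GV16). Its 3 MOG libraries lay below the SHAM libraries like those of Slc18a2, with a log2 fold change of -0.33 ± 0.13 that did not pass as a DEG (edgeR, adjusted p = 0.274). With 1 library left out this value ran from -0.38 to -0.21.

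Drd1 was the steadiest member. Its levels were 42.9, 39.8 and 40.7 CPM (SHAM), 44.7, 40.8 and 43.1 (MOG), 41.7, 43.1 and 39.5 (GB20) and 41.1, 40.8 and 45.5 (GV16). The 4 groups overlapped, and the intervals over the 6 comparisons ran from -0.21 to 0.22 on the log2 scale, which bounds any change between 0.865-fold and 1.17-fold. A change as large as that of the period gene Per2 below lies outside these bounds.

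Drd2, the autoreceptor, had the lowest p of the set. Its libraries read 28.6, 32.9 and 28.9 CPM (SHAM), 29.6, 26.9 and 27.6 (MOG), 23.0, 26.4 and 25.3 (GB20) and 27.7, 26.0 and 27.2 (GV16). All GB20 libraries lay below all SHAM and all MOG libraries, and all GV16 libraries lay below all SHAM libraries. The log2 fold change was -0.28 ± 0.09 in GB20 vs. SHAM, with an interval from -0.46 to -0.09 (edgeR, adjusted p = 0.238). It was -0.17 ± 0.09 in GB20 vs. MOG, -0.10 ± 0.09 in MOG vs. SHAM and -0.16 ± 0.09 in GV16 vs. SHAM (adjusted p = 0.638, 0.645 and 0.534). Over any difference among the 4 groups Drd2 had an adjusted p of 0.439 in edgeR. Without replicate 2 of SHAM, its highest library, the value in GB20 vs. SHAM was -0.21 and that in MOG vs. SHAM was -0.03. Drd2 was not a DEG in any comparison, and the lowest adjusted p that any alternative setting gave to a member was that of Drd2 in GB20 vs. SHAM (0.125, with a replicate block and the gene length trend removed).

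Drd4, which is highest at night in rodent retina, read 168, 213 and 172 CPM (SHAM), 198, 188 and 201 (MOG), 182, 195 and 167 (GB20) and 160, 176 and 182 (GV16). Replicate 2 of SHAM was the highest of the 12 libraries, and without it the SHAM libraries lay below all MOG libraries. The log2 fold change was 0.09 ± 0.09 in MOG vs. SHAM (edgeR, adjusted p = 0.702) and 0.21 without replicate 2 of SHAM. GB20 overlapped MOG with -0.11 ± 0.09 (adjusted p = 0.769). All GV16 libraries lay below all MOG libraries, with a log2 fold change of -0.18 ± 0.09 whose p was under 0.05 before and not after adjustment (edgeR, adjusted p = 0.933). The intervals of the 6 comparisons ran from -0.36 to 0.26.

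Adcy1 read 720, 531 and 771 CPM (SHAM), 715, 687 and 728 (MOG), 645, 534 and 737 (GB20) and 799, 681 and 691 (GV16). The groups overlapped, and the lowest value of all lay in SHAM, in the same replicate 2 in which Drd4 was highest. The log2 fold change was 0.07 ± 0.13 in MOG vs. SHAM, -0.15 ± 0.13 in GB20 vs. MOG and 0.03 ± 0.13 in GV16 vs. MOG (edgeR, adjusted p = 0.841, 0.785 and 0.998). Without replicate 2 of SHAM the first of these was -0.06, the value in GB20 vs. SHAM went from -0.08 to -0.22 (adjusted p = 0.41), and the second was -0.04 without replicate 2 of GB20 and -0.27 without replicate 3 of GB20. The intervals ran from -0.45 to 0.37, wider than those of Drd4 although Adcy1 had more counts.

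Aanat, the enzyme of melatonin synthesis, had 9, 10 and 4 counts (SHAM), 2, 9 and 9 (MOG), 14, 5 and 7 (GB20) and 3, 6 and 2 (GV16). In CPM the group means were 0.452 ± 0.200, 0.402 ± 0.251, 0.484 ± 0.215 and 0.232 ± 0.137, and every group overlapped every other. Exact 2-sided permutation tests over the 6 comparisons gave p between 0.2 and 0.9, where the smallest possible p is 0.1. The sum over all 12 libraries was 80 counts, so a night-time rise or its absence was not detectable at this depth. Further genes of melatonin were under the filter too. Asmt, the last enzyme of the pathway, had 4 counts in all, and the receptors Mtnr1a and Mtnr1b had 76 and 1.

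**Figure D2:**
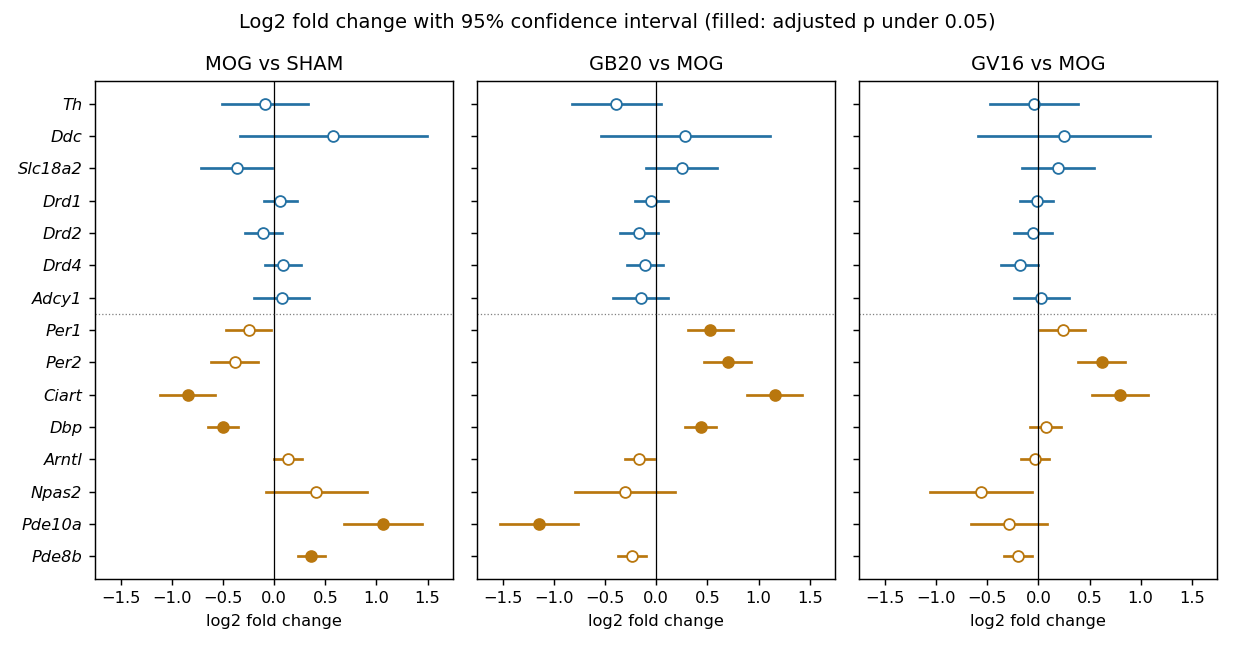
Log2 fold change (horizontal axes) with its 95% confidence interval for the 7 tested members (above the dotted line) and for clock and cyclic AMP genes (below it), with 1 panel each for MOG vs. SHAM, for GB20 vs. MOG and for GV16 vs. MOG; filled points had an adjusted p under 0.05. No member is filled, while Per2 and Ciart are filled in both needled groups against MOG and Pde10a is filled in MOG vs. SHAM and GB20 vs. MOG.

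Counted over the set, 0 of the 7 tested members were DEGs in each of the 6 comparisons by edgeR, and 0 of 7 differed over any of the 4 groups. At an unadjusted p under 0.05 there were 4 of 42 pairs of member and comparison, namely Slc18a2 in MOG vs. SHAM, Drd4 in GV16 vs. MOG and Th and Drd2 in GB20 vs. SHAM. Of all 18299 genes tested, 2380 had such a p in MOG vs. SHAM, 1464 in GB20 vs. MOG and 969 in GV16 vs. MOG. There were 536 in GB20 vs. GV16, 1657 in GB20 vs. SHAM and 2001 in GV16 vs. SHAM. These numbers are the background for the lists below too. DESeq2, limma-voom and limma on FPKM called 0 members as well. Of all genes tested, 1.34% were DEGs in MOG vs. SHAM, 0.24% in GB20 vs. MOG, 0.164% in GV16 vs. MOG, 0.00546% in GB20 vs. GV16, 0.344% in GB20 vs. SHAM, 0.656% in GV16 vs. SHAM and 1.1% over any difference. With 7 genes, 0 calls is what such shares give, so the count alone says little and the intervals above carry the result. The groups did not overlap for 1 of 7 members in MOG vs. SHAM (16.2% of all genes), 1 in GB20 vs. MOG (15.7%), 1 in GV16 vs. MOG (12.6%), 0 in GB20 vs. GV16 (8.34%), 3 in GB20 vs. SHAM (12.7%) and 2 in GV16 vs. SHAM (14.5%). The median log2 fold change of the members was 0.06 in MOG vs. SHAM, -0.11 in GB20 vs. MOG and -0.01 in GV16 vs. MOG, and the median of all genes was within 0.01 of 0 in each. The comparisons share libraries, since MOG or SHAM stands on one side of 5 of the 6, and are not independent of each other.

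The wider pathway lists gave the same kind of count for dopamine and another for cyclic AMP. Of 20 dopamine partners (cofactor synthesis, degradation, signalling proteins and transcription factors), 17 were tested and 0 were DEGs in any of the 6 comparisons by edgeR, with 1 to 5 at an unadjusted p under 0.05. Of 6 melatonin partners 2 were tested and 0 were DEGs by edgeR, with 0 or 1 at an unadjusted p under 0.05. Of 32 genes of the cyclic AMP pathway 31 were tested, and 3 were DEGs in MOG vs. SHAM. Pde10a, a phosphodiesterase that degrades cyclic AMP and cyclic GMP, rose from 45.5, 24.1 and 37.95 CPM in SHAM to 72.0, 80.7 and 71.9 in MOG, a log2 fold change of 1.06 ± 0.17 (edgeR, adjusted p = 0.0107). With 1 library left out this value ran from 0.85 to 1.27. Pde8b, a phosphodiesterase specific for cyclic AMP, rose by 0.36 ± 0.07 (adjusted p = 0.00328), and Prkar1b, a regulatory subunit of protein kinase A, fell by 0.31 ± 0.07 (adjusted p = 0.0337). The call of Pde10a was lost in edgeR on the 6 libraries compared (log2 fold change 1.07, adjusted p = 0.0989) and in limma on FPKM without a filter (0.87, adjusted p = 0.0576). The call of Prkar1b was lost in edgeR on the 6 libraries compared (adjusted p = 0.0905) and in limma on FPKM (adjusted p = 0.142 to 0.195), and also without replicate 1 or 2 of SHAM, replicate 2 or 3 of MOG or replicate 3 of GV16, at log2 fold changes between -0.31 and -0.26.

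Pde10a in GB20 read 33.3, 34.1 and 34.4 CPM, inside the range of SHAM, and fell by 1.14 ± 0.17 on the log2 scale against MOG (edgeR, adjusted p = 0.0233). That call was lost without replicate 3 of SHAM or without any 1 of the MOG or GB20 libraries, at nearly unchanged log2 fold changes between -1.17 and -1.09 and adjusted p between 0.0704 and 0.141. It was also lost with a replicate block (adjusted p = 0.0609) and in limma on FPKM (0.0651 to 0.0969), and so in 11 of 23 alternative settings in all. In GV16 Pde10a read 69.4, 58.6 and 56.2 CPM, below MOG in all 3 libraries, with a log2 fold change of -0.29 ± 0.17 that was not a DEG (adjusted p = 0.992). All GB20 libraries lay below all GV16 libraries, with a log2 fold change of -0.86 and an interval from -1.24 to -0.47 whose p was under 0.05 before and not after adjustment (edgeR, adjusted p = 0.9999), and the difference was called in 5 of 23 alternative settings.

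The clock genes were set beside the members because they can move with light phase too. All 19 were tested. In MOG vs. SHAM 3 fell and 0 rose, where 0.771% of all genes were called lower. Ciart, a repressor of CLOCK and BMAL1, fell by 0.85 ± 0.13, the output factor Dbp fell by 0.50 ± 0.07 and the repressor Bhlhe40 fell by 0.35 ± 0.08 (edgeR, adjusted p = 0.00105, 0.000434 and 0.0313). Bhlhe40 lost its call without replicate 1 or 2 of SHAM or without any 1 of the MOG libraries, at log2 fold changes between -0.39 and -0.30. Per2 read 32.5, 40.9 and 44.5 CPM in SHAM and 27.4, 33.2 and 30.0 in MOG, with a log2 fold change of -0.38 ± 0.11 that was not a DEG (adjusted p = 0.102) and became one without replicate 1 of SHAM, at -0.50, and with no filter on low counts, at -0.39 (adjusted p = 0.00385).

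In GB20 vs. MOG 6 of the 19 clock genes rose and 0 fell, where 0.0984% of all genes were called higher. Per2 read 45.7, 51.3 and 49.6 CPM in GB20, a log2 fold change of 0.70 ± 0.11 (edgeR, adjusted p = 0.00407). Ciart rose by 1.16 ± 0.13, the period gene Per1 by 0.53 ± 0.10 and Dbp by 0.43 ± 0.07 (adjusted p = 3.39e-05, 0.0338 and 0.00554). Per1 lost its call without replicate 3 of SHAM, replicate 1 or 2 of MOG or any 1 of the GB20 libraries, at log2 fold changes between 0.43 and 0.58, and with the gene length trend removed (0.54, adjusted p = 0.0782). Dbp lost its call without replicate 2 of MOG (0.41) or replicate 2 of GB20 (0.36). Cry1 was a DEG in GB20 vs. MOG as well, at 0.40 (edgeR, adjusted p = 0.0153). It lost this call without any 1 of the MOG libraries or replicate 2 or 3 of GB20 (0.36 to 0.40). The call was also lost in limma on FPKM (adjusted p = 0.0772 to 0.0885). In GV16 vs. MOG 3 rose and 0 fell, where 0.0656% of all genes were called higher, and these were Ciart (0.79 ± 0.13), Per2 (0.62 ± 0.11) and the repressor Cry1 (0.37 ± 0.07), with adjusted p = 0.00731, 0.017 and 0.038 in edgeR. Ciart lost its call without replicate 1 of MOG (0.72) or replicate 2 of GV16 (0.65), Per2 without replicate 1 or 3 of MOG or 1 or 3 of GV16 (0.54 to 0.62), and Cry1 without replicate 1 of SHAM, replicate 2 or 3 of GB20 or any 1 of the MOG or GV16 libraries (0.35 to 0.40).

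Arntl, which encodes BMAL1 and runs opposite to the period genes in a clock, and its relative Npas2 were not DEGs in any comparison. Their log2 fold changes in GB20 vs. MOG were -0.16 ± 0.07 and -0.30 ± 0.24 (edgeR, adjusted p = 0.525 and 0.766). In GV16 vs. SHAM Dbp fell by 0.43 ± 0.07 and the nuclear receptor gene Nr1d1 by 0.36 ± 0.08 (adjusted p = 0.00407 and 0.0334). The call of Dbp was lost without replicate 3 of GV16 (-0.39), and that of Nr1d1 without replicate 1 or 2 of SHAM, 2 or 3 of MOG or 2 or 3 of GV16 (-0.38 to -0.30). Apart from that of Cry1 in GB20 vs. MOG, 12 clock gene calls are given here. In limma on FPKM, 9 of these 12 were lost under all 3 settings, with adjusted p from 0.0556 to 0.393. Those of Dbp in MOG vs. SHAM and of Ciart in GB20 vs. MOG were kept under all 3, and that of Ciart in MOG vs. SHAM was lost without a filter (adjusted p = 0.0542). Cry1 in GV16 vs. MOG also lost its call in limma-voom (adjusted p = 0.0612), and Bhlhe40 and Nr1d1 lost theirs in edgeR on the 6 libraries compared (adjusted p = 0.056 and 0.105). In GB20 vs. SHAM and GB20 vs. GV16, 0 clock genes were DEGs by edgeR, with 7 and 4 at an unadjusted p under 0.05. Of the E-box genes printed above, Per1 had an interval of 0.31 to 0.75 for its log2 fold change in GB20 vs. MOG and Adcy1 one of -0.42 to 0.12. The difference between the genes was not tested.

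**Figure D3:**
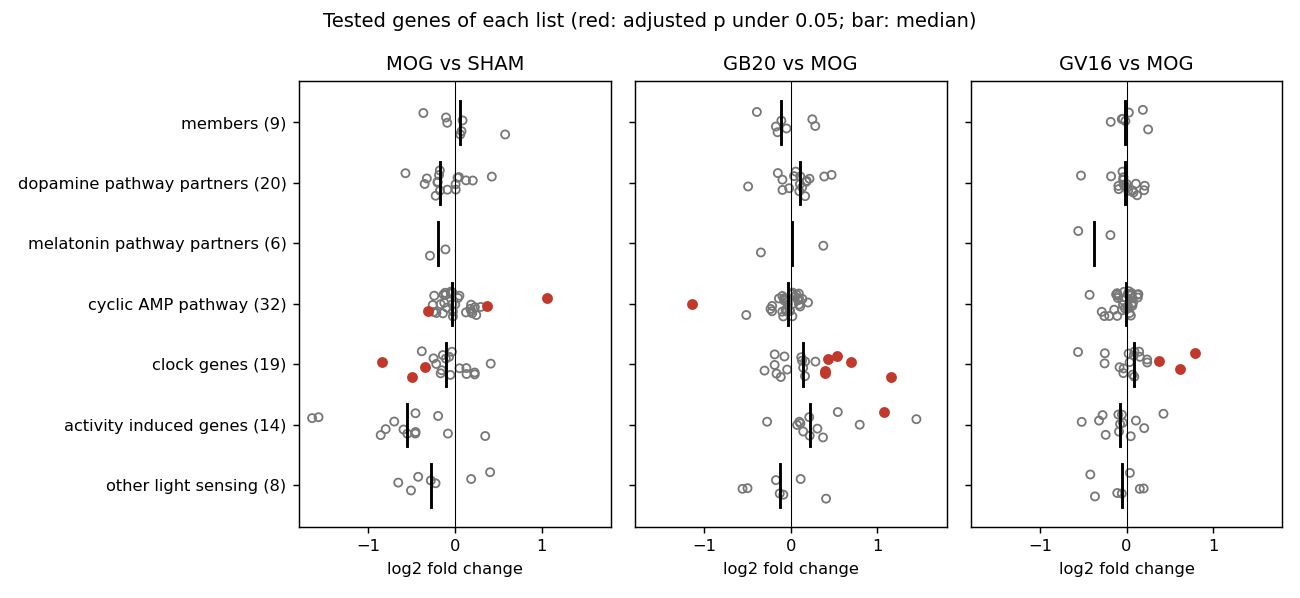
Log2 fold change (horizontal axes) of every tested gene of the members and of 6 companion lists, with 1 panel each for MOG vs. SHAM, for GB20 vs. MOG and for GV16 vs. MOG and the number of genes on each list in brackets; red points had an adjusted p under 0.05 and black bars are medians. The members and the dopamine and melatonin partners have no red point, the clock list has 3, 6 and 3, and the cyclic AMP list has 3, 1 and 0.

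Early genes induced by activity and genes of light sensing outside rods and cones were read too. Only some of the latter encode photopigments. Of 14 activity-induced genes 13 were tested, and only Egr3 was a DEG, in GB20 vs. MOG (log2 fold change 1.07 ± 0.23, edgeR, adjusted p = 0.0488). Its call was lost without replicate 1 or 3 of SHAM, any 1 of the MOG or GB20 libraries or replicate 2 or 3 of GV16, at log2 fold changes between 1.01 and 1.16, and also in DESeq2, limma-voom (adjusted p = 0.0732 and 0.079) and limma on FPKM (0.215 to 0.312). In MOG vs. SHAM the list had a median log2 fold change of -0.55, with members from -1.65 to 0.35. It had 0 DEGs by edgeR, and 4 genes at an unadjusted p under 0.05. The paper, with DESeq2, reports Egr4 and Nr4a3 as lower in MOG and Nr4a3 as reversed by GB20. Here neither was a DEG by edgeR. Mean levels of Egr4 were 3.061 CPM (SHAM), 0.9686 (MOG), 1.682 (GB20) and 0.8186 (GV16). Those of Nr4a3 were 5.403, 1.803, 4.94 and 2.441 CPM in the same order. The cause of this difference from the paper was not tested. Of 8 genes of other light sensing 7 were tested and 0 were DEGs in any comparison by edgeR, with 0 to 3 at an unadjusted p under 0.05. Opn4, the melanopsin of intrinsically light-sensitive ganglion cells, read 3.78 ± 0.506 CPM (SHAM), 3.10 ± 0.471 (MOG), 2.74 ± 0.608 (GB20) and 2.32 ± 0.462 (GV16).

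Markers of other cells moved with the groups and stand beside these results. The 6 ganglion cell markers all fell in MOG vs. SHAM by edgeR, with a summed level of 548 to 612 CPM (SHAM), 312 to 371 (MOG), 381 to 393 (GB20) and 292 to 420 (GV16). Of the 9 markers of amacrine cells, the class to which the dopaminergic cells belong, only Calb2, which ganglion cells express too, was a DEG in MOG vs. SHAM (-0.71 ± 0.11, adjusted p = 0.00306, lost in limma on FPKM at 0.0604 to 0.112), and the summed level was 1243 to 1253 CPM in SHAM and 1081 to 1227 in MOG. The 8 markers of pigment epithelium and choroid summed to 18.4 to 25.6 CPM (SHAM), 34.0 to 48.2 (MOG), 36.2 to 43.4 (GB20) and 21.9 to 60.0 (GV16), with 0 of 7 tested genes called in MOG vs. SHAM by edgeR and 3 at an unadjusted p under 0.05. The 5 myelin markers, of which 4 were tested, summed to 61.8 to 66.2 CPM (SHAM), 70.3 to 94.4 (MOG), 57.0 to 63.5 (GB20) and 56.2 to 64.5 (GV16). Of these Cnp, an enzyme of oligodendrocytes, was a DEG in MOG vs. SHAM (0.50 ± 0.10), in GB20 vs. MOG (-0.58 ± 0.10) and in GV16 vs. MOG (-0.70 ± 0.10), with adjusted p = 0.00776, 0.00767 and 0.00218 in edgeR. Without replicate 3 of MOG the first and the second of these calls were lost, and the second was lost without replicate 1 of GB20 too. Limma on FPKM lost the second under all 3 settings and the first without a filter. No marker of these lists was at 0 in all libraries. The part of these cells in the values of Ddc and Slc18a2 was not tested.

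The libraries also differed in how counts depended on gene length, and Adcy1 followed that difference. The slope of log2 CPM on the doubling of exon length, relative to the mean of all libraries, ran from -0.10 in replicate 2 of SHAM to 0.05 in replicate 3 of SHAM. The slopes were fitted on 12289 genes of the same libraries, Adcy1 and Slc18a2 among them. The permutations below shuffled all 12 libraries without regard to group, so their p-values only describe the relation. Adcy1, with 12522 exonic bases, is longer than 95.9% of the genes tested. Over the 12 libraries its log2 CPM correlated with the slope at Pearson r = 0.867 (permutation test, 2-sided, p = 0.00021, adjusted p = 0.00147) and a Spearman coefficient of 0.713 (p = 0.0119, adjusted p = 0.0651), and without replicate 2 of SHAM and of GB20 r was 0.659. With deviations from the group means r was 0.865. Slc18a2 correlated at r = -0.728 (permutation test, p = 0.00541, adjusted p = 0.0189) and a Spearman coefficient of -0.678 (p = 0.0186, adjusted p = 0.0651), and r was -0.557 without the same libraries. The other 5 of the 7 members tested had an adjusted p of at least 0.248 for r. With deviations from the group means, however, r was -0.803 for Drd4 and -0.675 for Slc18a2. It lay between -0.452 and 0.037 for Th, Ddc, Drd1 and Drd2. Without replicate 2 of SHAM and of GB20, r of Drd4 was 0.058. With the length trend removed, the log2 fold change of Adcy1 was 0.01 in MOG vs. SHAM and -0.09 in GB20 vs. MOG.

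**Figure D4:**
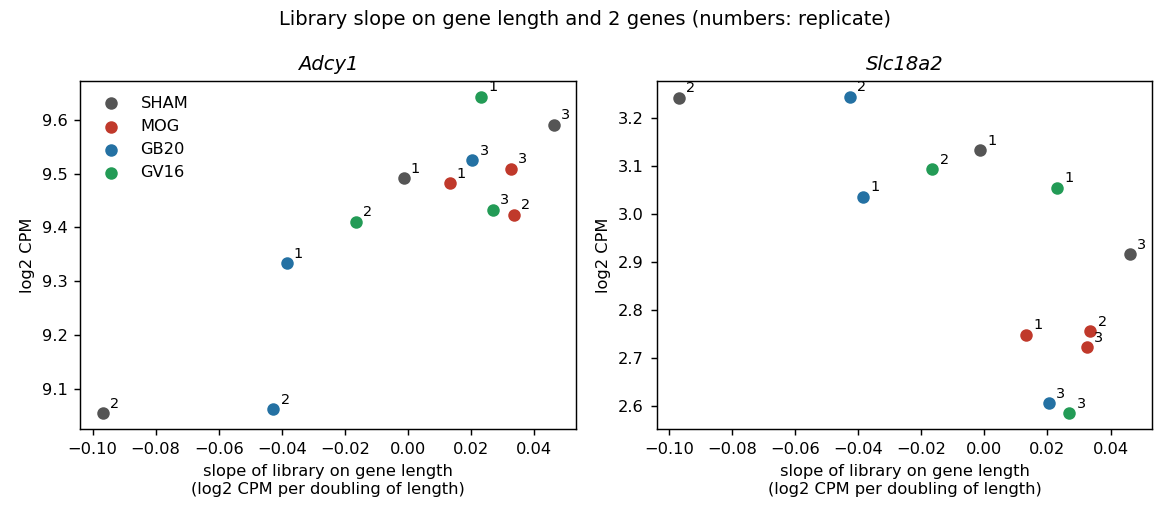
Log2 CPM of Adcy1 and Slc18a2 (vertical axes) against the slope of each library on gene length (horizontal axes, log2 CPM per doubling of length), with 1 point per library, colours for the groups and numbers for replicates. Adcy1 is lowest in replicate 2 of SHAM and of GB20, the 2 libraries with the lowest slopes, and the 3 MOG libraries sit together at slopes above 0.

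The genes whose levels ran most like 3 of the members over the 12 libraries were sought among genes with a mean of at least 5 CPM, as a description without a test. Th ran most like Tbx3 (Pearson r = 0.92), Yap1 (0.88) and Ccdc166 (0.83) among 12277 genes. Drd4 ran most like Sat1 (0.92), 4632432E15Rik (0.88) and A930016O22Rik (0.87). Adcy1 ran most like Arhgef12 (0.96), Atf6 (0.95) and Herc2 (0.95), which have 13620, 9231 and 16175 exonic bases.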

How the data were processed

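Retinal RNA of 12 libraries (SHAM, MOG, GB20 and GV16, 3 each) was measured by RNA sequencing, and group and replicate number came from the labels. The authors aligned reads with HISAT2 2.0.5 to mm10 (per the submitters' processing notes) and took gene counts with FeatureCounts, and these counts were deposited by the authors as whole numbers, not normalized. The deposited FPKM values are those counts divided by gene length and by 1 constant per library, and the constants differed by up to 3.76%. For the strand setting and the annotation release no source used here gives a value. Symbols, lengths and coordinates were looked up in GENCODE vM21 (GRCm38), where 54409 of 54532 identifiers were found, and promoter sequences from RefSeq (GRCm38.p6).

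Counts were tested with edgeR 4.0.16 in R 4.3.3 (expression filter with a count minimum of 10, TMM, robust quasi-likelihood, all 12 libraries, 1 mean per group, 8 residual degrees of freedom). Genes were called DEGs at an adjusted p (Benjamini-Hochberg) under 0.05 over all 18299 genes tested. The members with the fewest counts were compared by exact permutation of CPM, namely Ddc, which passed the filter, and Aanat and Slc6a3, which did not. The fit was also run on simulated counts with 200 changed genes. These counts carried no gene length trend, and no result given here rests on that run. Alternatives used DESeq2 1.42.0 and limma 3.58.1. Intervals are 95% and floors (3 counts) cover counting error only. Total counts were 15860278 to 19194280 per library. No library was excluded. The methods describe repeat rounds of the experiment, and no label gives a batch or round for a library.

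The members and lists were chosen with earlier results of these data known. Named are all 9 members, each DEG of a list where 4 or fewer were called in a comparison and otherwise the 4 with the largest change, Per1, Per2, Arntl, Npas2, Pde10a and Nr4a2 in any case, the defining markers, and the 3 genes most correlated with Th, Drd4 and Adcy1. Egr4 and Nr4a3 were added since the authors reported them, and Cry1 in GB20 vs. MOG since it was called in GV16 vs. MOG.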

Additional observations from a re-analysis of the deposited data

How the results depend on the processing

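Under 23 alternative settings the count of members that were DEGs stayed at 0 in each of the 6 comparisons, as it did over any difference in the 22 of them where that test could be run, in 1174 tests of members in all. Aanat entered 5 and Slc6a3 entered 3 of these settings. The settings were DESeq2's size factors, no filter on low counts, DESeq2, limma-voom, edgeR on the 6 libraries compared, a replicate block, removal of the gene length trend, both together, limma on log2(FPKM + 1), on log2(FPKM + 0.1) and without a filter on FPKM, and leaving out each of the 12 libraries. The lowest adjusted p of a member was 0.125 (Drd2 in GB20 vs. SHAM). Of 42 log2 fold changes of members 25 kept their sign throughout, and 17 changed it when 1 library was left out and under no other setting. The lowest and highest values with 1 library left out were -0.16 and 0.039 for Th in MOG vs. SHAM, -0.17 and 0.092 for Th in GV16 vs. MOG, -0.25 and 0.0034 for Th in GV16 vs. SHAM, -0.064 and 0.44 for Ddc in GB20 vs. MOG, -0.31 and 0.25 for Ddc in GB20 vs. GV16, -0.089 and 0.21 for Slc18a2 in GB20 vs. GV16, -0.26 and 0.034 for Slc18a2 in GB20 vs. SHAM, -0.065 and 0.018 for Drd1 in GV16 vs. MOG, -0.066 and 0.016 for Drd1 in GB20 vs. GV16, -0.020 and 0.042 for Drd1 in GB20 vs. SHAM, -0.0029 and 0.077 for Drd1 in GV16 vs. SHAM, -0.086 and 0.095 for Drd4 in GB20 vs. SHAM, -0.16 and 0.023 for Drd4 in GV16 vs. SHAM, -0.064 and 0.18 for Adcy1 in MOG vs. SHAM, -0.050 and 0.070 for Adcy1 in GV16 vs. MOG, -0.22 and 0.034 for Adcy1 in GB20 vs. SHAM, and -0.042 and 0.21 for Adcy1 in GV16 vs. SHAM. Of the clock genes, Npas2 in GB20 vs. MOG did so too (-0.51 and 0.019). The cause was not tested.

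Same-numbered libraries were not treated as paired, since no label says that a number marks a round of the experiment and their deviations from the group means correlated between -0.12 and 0.48, over 0.1 in 8 of 18 pairs. As a hint from the data that a number may mark a round, 10 of 12 libraries correlated best with their own number. With the replicate block 0 members were DEGs, while DEGs over all genes went from 245 to 404 in MOG vs. SHAM, from 44 to 73 in GB20 vs. MOG, from 30 to 47 in GV16 vs. MOG, from 63 to 182 in GB20 vs. SHAM and from 120 to 236 in GV16 vs. SHAM, and Pde10a in GB20 vs. MOG had an adjusted p of 0.0609. Over all genes, the 245 DEGs of MOG vs. SHAM became 91 to 427 with 1 library left out and 196 to 539 under the other settings. The 44 of GB20 vs. MOG became 13 to 83 and 37 to 140, the 30 of GV16 vs. MOG 10 to 38 and 14 to 73, the 1 of GB20 vs. GV16 0 to 4 and 1 to 8, the 63 of GB20 vs. SHAM 14 to 116 and 57 to 282, and the 120 of GV16 vs. SHAM 23 to 231 and 66 to 395. Low counts limit Ddc, Aanat and Slc6a3.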
